A study of Mus musculus with 10 samples.

Results

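Dorsal skin of wild type mice was compared between the adult, at postnatal day 60 (P60), and the newborn, at postnatal day 1 (P1). The mice were of the C57BL/6 strain and had an intact Dlx4 gene (Dlx4-WT), and total RNA of the whole skin was sequenced. The comparison used 2 libraries at P60 and 3 at P1, which are 5 of the 10 libraries of the series. The other 5, from Dlx4-KO mice of the same strain and ages, served only to set the age difference of WT skin beside that of KO skin. The labels name no treatment and no transgene, and they do not say whether the numbered samples of 1 age came from 1 litter or several, so p-values measure the spread between these samples. Genes with at least 1 RPKM (reads per kilobase of transcript, scaled to the alignments of the library) in at least 2 of the 5 WT libraries were kept, which left 13690 of 24543 table entries.

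Mouse back skin is still being built at birth. The epidermis has just formed its cornified barrier, the first hair follicles are growing down into the dermis, fibroblasts deposit new matrix, and the thin muscle sheet beneath the skin, the panniculus carnosus, still carries newborn myosins. In young adults the back follicles usually rest in telogen, the dermis is a dense network of old collagen with few dividing cells, and immune cells have settled in it. Gene lists for these compartments were chosen to follow each of them.

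The WT libraries held 49936026 and 55722291 alignments at P60, against 37749481, 40238235 and 37765538 at P1. Skin markers were present at both ages: Krt5, a keratin of basal keratinocytes, had 1598 and 1158 RPKM at P60, against 1449, 1282 and 1086 RPKM at P1. Milk protein genes, B cell genes and the brown fat gene Ucp1 stayed under the filter. Skeletal muscle RNA was plentiful, and its level is given with the muscle genes. Dlx4, the gene targeted in the series, had 0 and 0.125 RPKM at P60, against 2.93, 3.78 and 3.42 RPKM at P1 (log2 difference -2.79, SE 0.18, adjusted p = 8e-05 in limma). The P60 libraries were all sequenced in 1 run and the P1 libraries in a second, and run and age cannot be told apart. Age and sex cannot be told apart within WT skin either. Xist, the RNA that silences one X chromosome in females, had 0.0805 and 0.0477 RPKM at P60, against 34.1, 34.3 and 37.6 RPKM at P1, and the Y-linked Eif2s3y had 26.9 and 22.3 RPKM at P60, against 0, 0.0164 and 0 RPKM at P1. A single P1 library of the series, KO P1 replicate 2, held Y-linked RNA, with 35 RPKM of Eif2s3y. Of the 9884 genes called in WT skin, that library lay nearer the WT P1 mean than the WT P60 mean for 9812, or 99.27%, and of the 5065 called genes that differed by at least 1 on the log2 scale it did so for 5041. For KO P1 replicates 1 and 3, which held Xist RNA, the shares of the 9884 were 98.52% and 98.89%, and the counts of the 5065 were 5055 and 5052. All 3 are KO libraries of the P1 run, and the part of sex in the differences was not tested.

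Most of the measured transcriptome differed between adult and newborn skin. In limma on log2(RPKM + 0.5), 9884 of 13690 genes (72.2%) were called at an adjusted p under 0.05, 2530 higher at P60 (18.5%) and 7354 lower (53.7%). Of the called genes 1252 were higher by at least 1 on the log2 scale and 3813 were lower by as much, together 37% of those tested. The libraries of the ages did not overlap in 11260 genes (82.2%), with 22.2% of all genes wholly higher at P60 and 60% wholly lower. A gene near 0 at 1 age entered the test only through the other age and could differ in 1 direction only. This holds for hair keratins, for most Krtap genes and for several immune markers below. It also holds for other low members of the lists, among them Plk1, Aurkb, Igf2bp3 and Peg3. At this size of group the 95% interval of a difference reached 0.361 to either side in the median gene. All differences below are P60 minus P1 on that log2 scale, which understates the change of genes near 0, and adjusted p-values are Benjamini-Hochberg values over all genes tested.

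The balance of higher and lower calls depends on how libraries are scaled. As deposited, 25.6% of the calls were higher, and the median of all genes was -0.48. With median-of-ratios size factors the median was -0.01 and 49.8% of the calls were higher (4493 higher and 4527 lower), and with quantile normalization the median was -0.05 with 4119 higher and 4441 lower. The adult libraries spent more of their RPKM on a few genes: the 20 highest entries held 20.2% and 21.4% at P60, against 11.1%, 10.1% and 10.8% at P1. Acta1, the actin of skeletal muscle fibres, was the highest entry at P60, and Krt10, a keratin of the spinous layer, at P1. The lists below are read against the median of -0.48, and their counts against the 18.5% of all genes called higher and 53.7% called lower. Lists whose median changed sign with the scaling are named with those values. Calls with median-of-ratios factors are given for part of the lists only. In bulk RNA, fewer cells of a type and less RNA per cell cannot be told apart.

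**Figure D1:**
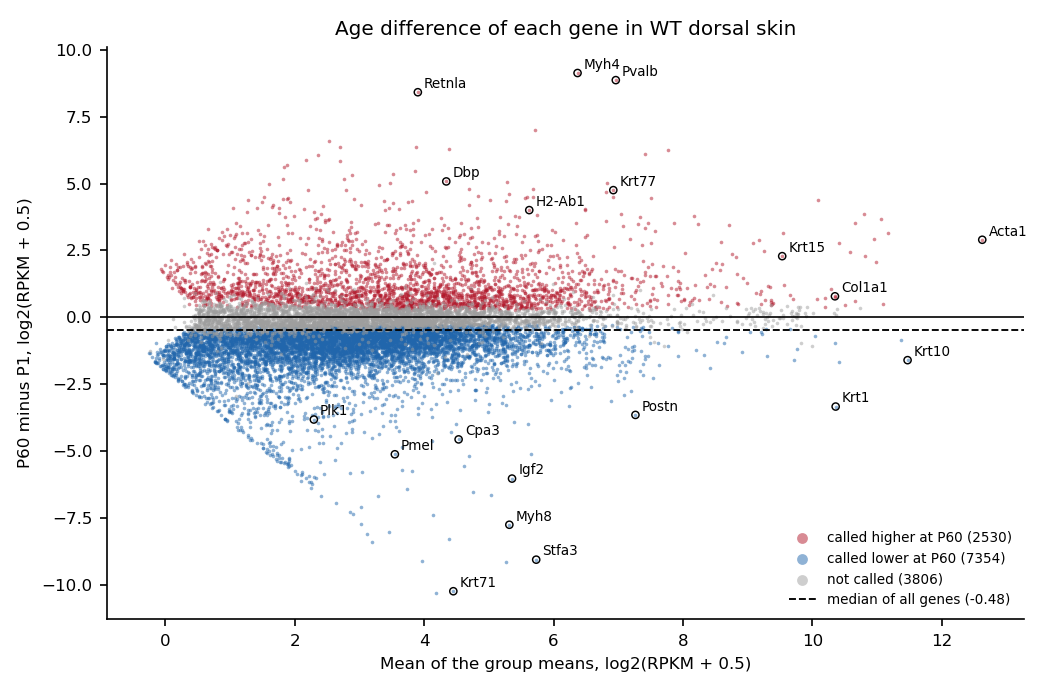
Each point is 1 of the 13690 genes tested in WT skin; the horizontal axis is the mean of the P60 and P1 levels and the vertical axis P60 minus P1, both as log2(RPKM + 0.5). Red points were called higher at P60 (2530), blue points lower (7354), grey points not called, and the dashed line at -0.48 is the median of all genes.

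**Figure D2:**
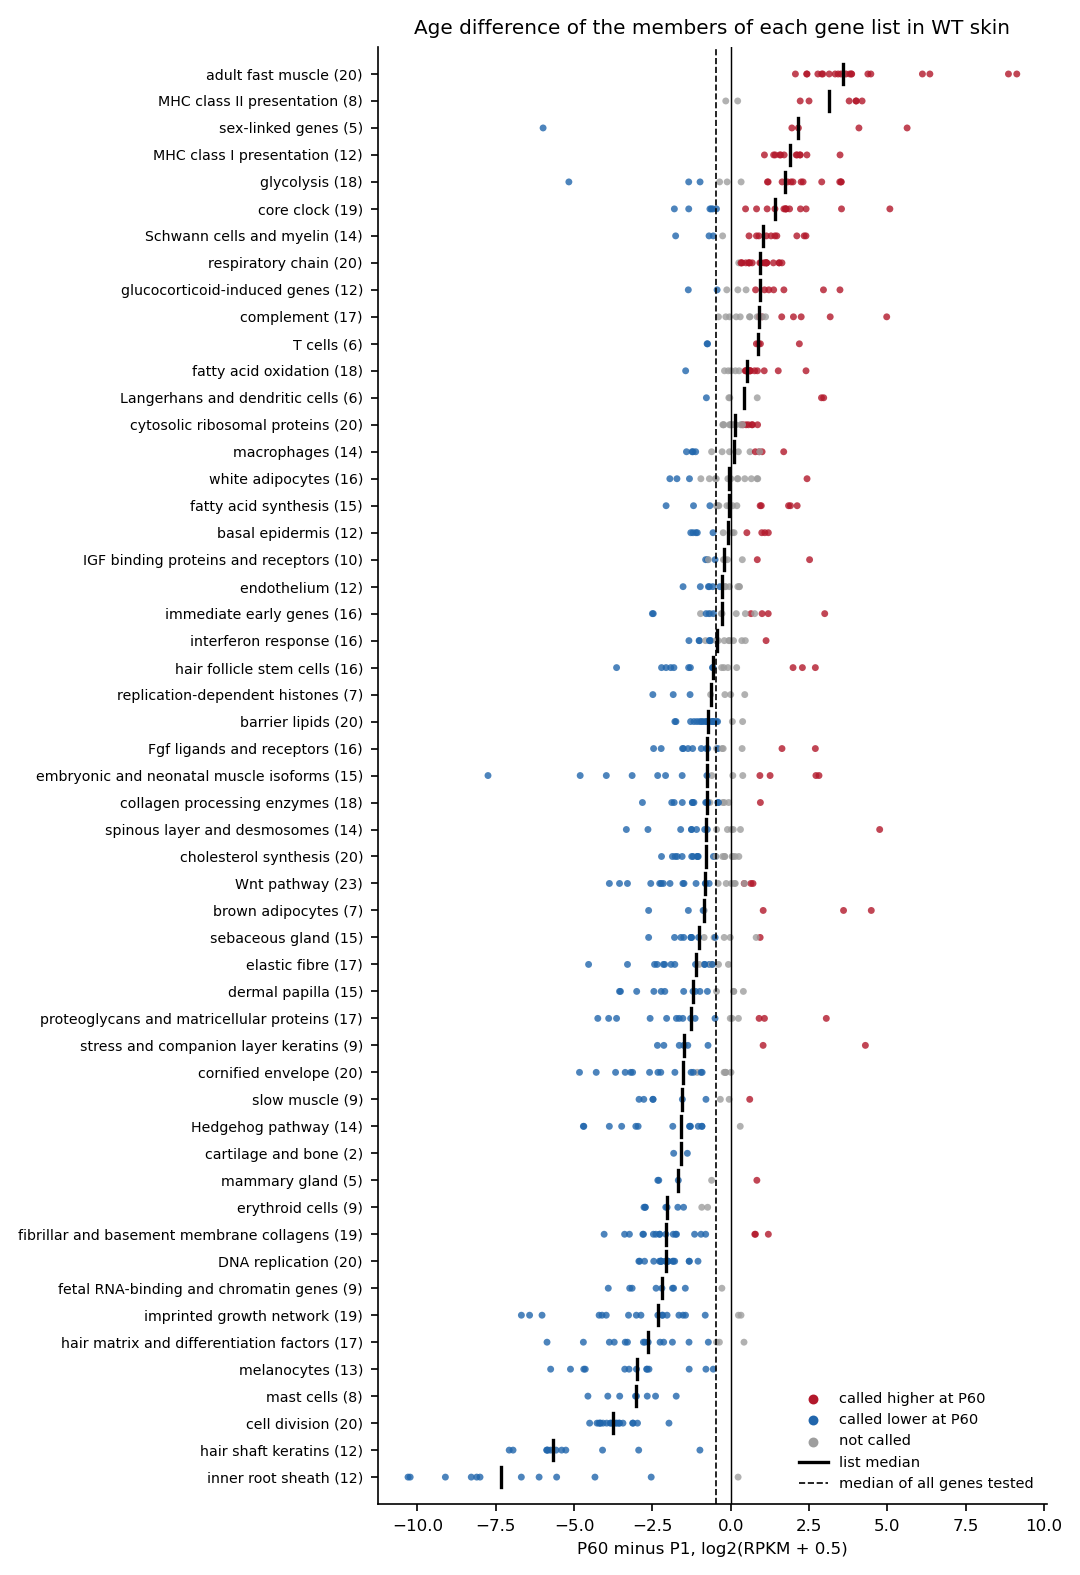
Each point is a tested member of a gene list in WT skin, placed at its P60 minus P1 difference in log2(RPKM + 0.5), with the number of tested members after the list's name. Bars mark list medians and the dashed line the median of all genes (-0.48); adult fast muscle lies at the top with a median of 3.60 and the inner root sheath at the bottom with -7.34.

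The largest single differences are named first, passing over predicted genes, small RNAs and pseudogene entries. The pseudogene entries Rplp2-ps1 and Rpl31-ps12, at 6.57 and 6.31, would otherwise be among the 12 largest rises, and reads may be shared with their parent genes. Among the 12 genes then left were 6 of skeletal muscle, described below, and several secreted proteins. Retnla, a resistin-like protein made by adipose tissue and alternatively activated macrophages, had 191 and 367 RPKM at P60, against 0.259, 0.534 and 0.105 RPKM at P1 (log2 difference 8.41, SE 0.33, adjusted p = 2.5e-05 in limma). Fcgbp, a mucin-like protein, had 48.3 and 48 RPKM at P60, against 0.249, 0.507 and 0.342 RPKM at P1. Wfdc3, a protein of the WAP protease inhibitor fold, had 51.4 and 20.2 RPKM at P60, against 0, 0.106 and 0.0767 RPKM at P1. Newborn libraries held almost none of these RNAs. Inmt, an N-methyltransferase, had 16 and 79.1 RPKM at P60, against 0, 0 and 0.154 RPKM at P1, and Mup10, a major urinary protein, had 29.2 and 23.1 RPKM at P60, against 0.00367, 0.0278 and 0.00123 RPKM at P1. In Inmt the adult libraries differed from each other by several times, and Mup genes are near-identical copies among which reads may be shared, so the value of Mup10 alone is uncertain.

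Among the 12 genes with the largest decline, chosen in the same way, were 7 of the hair and its sheath. Krt25, an inner root sheath keratin, had 5.2e-40 and 1.8e-42 RPKM at P60, against 494, 941 and 537 RPKM at P1 (log2 difference -10.30, SE 0.27, adjusted p = 1.2e-05 in limma). Values such as those of Krt25 at P60 are fractional estimates that amount to no read. Krt27 and Krt28, its neighbours in the gene cluster, differed by -9.11 and -8.00, and Tchh, the sheath protein trichohyalin, by -8.28. Stfa3, a stefin that inhibits cysteine proteases, had 2.31 and 1.3 RPKM at P60, against 1432, 1389 and 853 RPKM at P1, and Stfa1 and BC100530, a neighbour in the same cluster, differed by -7.39 and -9.15. The Stfa genes are near-identical copies, and the 3 tested had a summed level of 2.22 to 3.23 RPKM at P60, against 1096 to 1807 RPKM at P1. Both adult libraries were thus far below every newborn library for the family as a whole.

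Genes of cell division were uniformly lower in adult skin. All 20 members of that list fell, where 53.7% of all genes were called lower, with a median of -3.74 against -0.48 for all genes. Plk1, a kinase that drives entry into and passage through mitosis, had 0.9748 and 0.633 RPKM at P60, against 21.4, 18.1 and 14.4 RPKM at P1 (log2 difference -3.82, SE 0.20, adjusted p = 5.5e-05 in limma). Ccnb2, a cyclin partner of the mitotic kinase Cdk1, had 1.63 and 1.34 RPKM at P60, against 31.9, 32.1 and 21.2 RPKM at P1. Aurkb, the kinase of the chromosomal passenger complex, had 0.661 and 0.871 RPKM at P60, against 24.9, 23.9 and 17.9 RPKM at P1. In each of these genes both adult libraries were far below every newborn library. Plk1 and Aurkb were under 1 RPKM in both adult libraries and passed the filter only through the newborn ones. Such members could differ in 1 direction only, so they add little to the count. The summed level of the list was 23.3 to 27.1 RPKM at P60, against 331 to 537 RPKM at P1. Ube2c, which tags mitotic cyclins for destruction, kept the most RNA of the 4 in the adult, with 5.15 and 4.27 RPKM at P60, against 64.4, 61.2 and 44.1 RPKM at P1.

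The promoters of 3 of these genes are printed to show 2 motifs that most members with a window held. They are the 3 cell division genes of smallest p for which the RefSeq table held a window, from 250 bases before to 50 bases after the start (build GRCm38.p6, 5′ to 3′ on the gene's strand). Capitals mark 2 short motifs on either strand, TTTGAA or its complement TTCAAA (the CHR, cell cycle genes homology region) and CCAAT or its complement ATTGG (the CCAAT box). In the Ube2c window 1 CCAAT and 1 ATTGG share 2 letters and are in capitals as 1 run. The windows are chr7:122159185-122159484 on the plus strand for Plk1, chr9:70421505-70421804 on the minus strand for Ccnb2 and chr2:164769679-164769978 on the plus strand for Ube2c.
Plk1: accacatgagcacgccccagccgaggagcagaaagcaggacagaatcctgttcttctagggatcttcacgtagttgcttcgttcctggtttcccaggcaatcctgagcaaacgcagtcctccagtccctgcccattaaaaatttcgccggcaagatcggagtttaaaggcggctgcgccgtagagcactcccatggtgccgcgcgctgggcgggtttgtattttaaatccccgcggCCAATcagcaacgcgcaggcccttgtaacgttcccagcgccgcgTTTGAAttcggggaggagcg
Ccnb2: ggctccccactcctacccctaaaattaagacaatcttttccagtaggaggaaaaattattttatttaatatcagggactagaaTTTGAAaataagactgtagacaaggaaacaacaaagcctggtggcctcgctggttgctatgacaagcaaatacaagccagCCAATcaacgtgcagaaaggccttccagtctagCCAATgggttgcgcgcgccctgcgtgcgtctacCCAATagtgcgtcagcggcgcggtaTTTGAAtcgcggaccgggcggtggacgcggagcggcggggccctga
Ube2c: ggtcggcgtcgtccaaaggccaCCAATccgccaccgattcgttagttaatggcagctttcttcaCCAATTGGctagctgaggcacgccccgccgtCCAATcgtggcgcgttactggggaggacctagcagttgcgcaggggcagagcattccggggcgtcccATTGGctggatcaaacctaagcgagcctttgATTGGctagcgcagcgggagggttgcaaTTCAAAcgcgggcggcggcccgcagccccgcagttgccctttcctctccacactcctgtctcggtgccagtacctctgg
Of the 16 cell division genes with a window, 11 (68.8%) held a CHR and 14 (87.5%) a CCAAT box, and 11 held both. Of all 32851 promoter windows of the table, 17.9% held a CHR, 37.4% a CCAAT box and 6.95% both. In Plk1 the CHR began 31 bases into the transcribed part and the CCAAT box 14 bases before the start. The 21 windows of DNA replication genes differed from those of cell division genes mainly in the CHR: 2 (9.52%) held a CHR and 15 (71.4%) a CCAAT box. Of the 21 windows of the core clock list, described below, 16 (76.2%) held a CCAAT box. That box was thus not particular to cell division genes. A match of letters is a description and does not show that a factor binds there.

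DNA replication genes fell as uniformly but by less. All 20 tested members were called lower, with a median of -2.07. Rrm2, a subunit of the enzyme that makes deoxyribonucleotides, had 3.76 and 3.44 RPKM at P60, against 33.5, 36.9 and 23.5 RPKM at P1 (log2 difference -2.93, SE 0.20, adjusted p = 9.2e-05 in limma). Mcm5, part of the replicative helicase, had 3.52 and 3.1 RPKM at P60, against 29.1, 27.9 and 19.6 RPKM at P1, and its partner Mcm4 differed by -2.46. The adult levels of both genes stayed above 2 RPKM, so the lists overlap in direction and differ in how far they came down. Of the replication-dependent histones only 7 of 20 symbols passed the filter, 3 of them fell and 4 were not called. Their median of -0.64 turned to 0.13 with quantile normalization, and the copies are so alike that single histone values are uncertain.

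Imprinted growth genes, which are expressed from 1 parental copy and regulate size before and after birth, were lower in adult skin. Of 19 tested members 17 fell, none rose, and 2 were not called, with a median of -2.33. Igf2, a growth factor of fetal tissues, had 4.84 and 4.28 RPKM at P60, against 317, 274 and 406 RPKM at P1 (log2 difference -6.02, SE 0.18, adjusted p = 1.3e-05 in limma). Plagl1, a zinc finger factor of the same network, had 2.42 and 2.27 RPKM at P60, against 52.7, 43.7 and 49.6 RPKM at P1. Peg3, a paternally expressed zinc finger gene, had 0.645 and 0.666 RPKM at P60, against 19, 20.1 and 23.3 RPKM at P1. Within each gene the P60 values lay within 1 RPKM of each other, and every P1 value was several times above them. Dlk1, a Notch-related inhibitor of adipocyte formation, had 0.415 and 0.429 RPKM at P60, against 83.3, 61.2 and 163 RPKM at P1. Mest, a marker of fat and mesenchyme growth, had 0.628 and 1.18 RPKM at P60, against 149.6, 166 and 65.2 RPKM at P1. H19, the noncoding partner of Igf2, differed by -1.65 and was still among the abundant RNAs of the adult at 601 to 939.5 RPKM at P60, against 1907 to 3064 RPKM at P1. Gnas, a G protein subunit, was 1 of the members not called, at 0.33, and was called higher, at 0.84, with median-of-ratios factors.

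RNA-binding and chromatin genes of the fetal programme moved in the same direction. Of 14 symbols 9 passed the filter, of which 8 fell and 1 was not called (median -2.20). Of all genes 53.7% were called lower. Igf2bp3, which binds Igf2 and other growth messages, had 0.438 and 0.313 RPKM at P60, against 13.9, 12.7 and 11.4 RPKM at P1 (log2 difference -3.91, SE 0.14, adjusted p = 2.1e-05 in limma). Igf2bp2, its relative, had 0.595 and 0.814 RPKM at P60, against 11.3, 9.04 and 12 RPKM at P1. Both were under 1 RPKM in the adult libraries, passed the filter only through the newborn ones and could differ in 1 direction only. Sox4, a transcription factor of progenitor cells, had 1.93 and 2.65 RPKM at P60, against 24.8, 19.95 and 27.9 RPKM at P1. The IGF receptors and binding proteins did not share one direction. In that list 2 rose, 3 fell and 5 were not called, with median-of-ratios factors 3 were called higher and 0 lower, and their median of -0.21 turned to 0.28 with median-of-ratios factors. Igfbp6, which binds IGF2 in preference to IGF1, rose, with 81.1 and 158 RPKM at P60, against 16.2, 17.1 and 26.3 RPKM at P1 (log2 difference 2.52, SE 0.32, adjusted p = 0.00066 in limma).

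Most genes of the dermal matrix were lower in the adult, with the type I collagen genes among the exceptions. Of 19 collagen genes 16 fell and 3 rose, with a median of -2.07, where 53.7% of all genes were called lower. The summed level of these collagens overlapped between the ages, at 4366 to 5273 RPKM at P60, against 4735 to 5676 RPKM at P1. Col12a1, a fibril-associated collagen, had 1.04 and 0.954 RPKM at P60, against 25.8, 27.9 and 19.5 RPKM at P1 (log2 difference -4.04, SE 0.17, adjusted p = 3.1e-05 in limma). The basement membrane collagens Col4a1 and Col4a2 differed by -2.79 and -2.39. Col3a1, the fibrillar collagen typical of young dermis, had 797 and 1087 RPKM at P60, against 1949, 1816 and 1637 RPKM at P1 (log2 difference -0.95, SE 0.19, adjusted p = 0.0045 in limma), so that the ages did not overlap, although with median-of-ratios factors it was at -0.43 and not called. Col1a1, the main collagen of dermis, rose, with 1564 and 1866 RPKM at P60, against 1072, 1023 and 885 RPKM at P1 (log2 difference 0.79, SE 0.17, adjusted p = 0.00574 in limma). Col1a2, its partner chain, had 1576 and 1845 RPKM at P60, against 1071, 1069 and 877 RPKM at P1. With quantile normalization Col1a1 stood at 0.15 and Col1a2 at 0.14, and neither was called. The third collagen that rose, Col17a1, belongs to the hemidesmosomes of basal keratinocytes and not to the dermis; it had 181 and 149 RPKM at P60, against 70.03, 60.5 and 85 RPKM at P1.

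Other matrix genes were mostly lower too, where 53.7% of all genes were called lower. Of 18 tested collagen-processing enzymes 13 fell, 1 rose and 4 were not called. With median-of-ratios factors 7 of them were called lower and 1 higher, where 4527 of all 13690 genes were called lower. Plod2, which hydroxylates lysines of collagen telopeptides, had 0.669 and 0.788 RPKM at P60, against 8.84, 8.11 and 7.58 RPKM at P1 (log2 difference -2.82, SE 0.13, adjusted p = 4e-05 in limma). Lox, which crosslinks collagen and elastin, had 12.5 and 15.4 RPKM at P60, against 42, 43 and 39.6 RPKM at P1. Adamts2, the protease that removes the amino propeptide of type I collagen, was the member that rose, at 0.95 (SE 0.14). Of 17 elastic fibre genes 13 fell and none rose, and with median-of-ratios factors 10 were called lower and 0 higher. Fbn2, the fibrillin of developing tissue, had 0.0841 and 0.14 RPKM at P60, against 15.8, 14.1 and 11.5 RPKM at P1 (log2 difference -4.54, SE 0.17, adjusted p = 2.1e-05 in limma). Eln, elastin itself, had 21.4 and 25 RPKM at P60, against 193, 191 and 338 RPKM at P1. Adult skin held under 1 RPKM of Fbn2 and kept more than 20 RPKM of Eln.

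Of 17 tested proteoglycans and matricellular proteins 11 fell, 3 rose and 3 were not called, where 53.7% of all genes were called lower. With median-of-ratios factors 9 were called lower and 4 higher. Their summed level overlapped between the ages, at 2259 to 2715 RPKM at P60, against 2361 to 2621 RPKM at P1. Vcan, the large proteoglycan of loose young matrix, had 0.30 and 0.444 RPKM at P60, against 17.1, 17.5 and 13.6 RPKM at P1 (log2 difference -4.24, SE 0.16, adjusted p = 2.4e-05 in limma). Tnc, a matrix protein of growth and repair, had 1.65 and 1.07 RPKM at P60, against 31.1, 27.3 and 22.7 RPKM at P1. Postn, which organises collagen fibrils, had 50.5 and 36 RPKM at P60, against 583, 567 and 473 RPKM at P1. Adult values of all of these were below every newborn value. Sparc, a collagen-binding protein, rose, with 1697 and 1928 RPKM at P60, against 854, 947 and 782 RPKM at P1, and with quantile normalization it was at 0.44 and not called. Spp1, a secreted phosphoprotein made by macrophages among others, rose, with 4.44 and 6.7 RPKM at P60, against 0.299, 0.263 and 0.114 RPKM at P1. The fibroblast marker Pdgfra, a receptor for platelet-derived growth factors, had 1.6 and 4.41 RPKM at P60, against 14, 14.6 and 16.9 RPKM at P1.

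Genes of the growing hair held the lowest medians of all lists. All 12 tested hair shaft keratins fell, with a median of -5.66, and 11 of 12 inner root sheath genes fell, with a median of -7.34. Krt71, a keratin of the inner root sheath that moulds the growing hair, had 0.171 and 0.0664 RPKM at P60, against 569, 1100.4 and 647 RPKM at P1 (log2 difference -10.23, SE 0.28, adjusted p = 1.2e-05 in limma). Krt73, another keratin of this sheath, had 0.0323 and 0 RPKM at P60, against 130.2, 184 and 119 RPKM at P1. Krt35, an early keratin of the hair shaft, had 0.216 and 0.168 RPKM at P60, against 79.98, 129 and 76.2 RPKM at P1. These RNAs were close to 0 in both adult libraries, and WT P1 replicate 2 was the highest newborn library for all of these keratins. Gata3, the sheath factor that was not called, is also made in interfollicular epidermis and immune cells and had 43 and 42 RPKM at P60, against 33.6, 33.9 and 41.1 RPKM at P1; it was called higher with median-of-ratios factors (0.75) and without WT P1 replicate 3 (0.33). The Krtap genes, whose products crosslink hair keratins, had a summed level of 10.45 to 10.59 RPKM at P60, against 524.5 to 2002 RPKM at P1. Of 44 tested 42 fell, but with so low a sum at P60 most passed the filter only through the newborn libraries. Such genes could differ in 1 direction only, so the count adds little to the summed level. Several are near-identical, so single values are uncertain.

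Most listed regulators of the growing follicle were also lower, where 53.7% of all genes were called lower. Of 17 hair matrix factors 14 fell and 3 were not called (median -2.63). With median-of-ratios factors 13 of these were called lower and 1 higher. Dlx3, a homeobox factor of hair and epidermal differentiation, had 4.96 and 3.69 RPKM at P60, against 56.4, 68 and 63.6 RPKM at P1 (log2 difference -3.72, SE 0.15, adjusted p = 3e-05 in limma). Padi3, which citrullinates the sheath protein trichohyalin, had 0.0151 and 0.101 RPKM at P60, against 25, 44.6 and 29 RPKM at P1. Of 15 dermal papilla genes 11 fell and 4 were not called (median -1.20), and with median-of-ratios factors 10 were called lower and 2 higher. Corin, a protease of the papilla, had 0.0738 and 0.0451 RPKM at P60, against 4.5, 4.4 and 3.17 RPKM at P1. Alx4, a homeobox factor of dermal mesenchyme, had 0.458 and 0.267 RPKM at P60, against 11.1, 8.94 and 8.19 RPKM at P1.

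Stem cell genes of the resting follicle did not move together. In that list 3 rose, 9 fell and 4 were not called, with a median of -0.58 close to that of all genes. Krt15, a keratin of the bulge and of basal cells, rose, with 1796 and 1486 RPKM at P60, against 351, 328 and 325 RPKM at P1 (log2 difference 2.29, SE 0.14, adjusted p = 7.8e-05 in limma). Fgf18, a bulge signal known to hold follicles at rest, rose as well, with 16.6 and 9.13 RPKM at P60, against 1.33, 1.69 and 1.43 RPKM at P1 (log2 difference 2.70, SE 0.25, adjusted p = 0.00021 in limma). The stem cell markers Lgr6 and Lrig1 fell, with differences of -2.21 and -1.81. Cd34, which marks the adult bulge and also vessels, was at 63.3 and 73.8 RPKM at P60, against 55.2, 62.8 and 62.2 RPKM at P1 and was called only with median-of-ratios factors (0.70).

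Of the signalling pathways of hair growth, the Hedgehog genes fell most uniformly. Hedgehog signalling passes from the ligand Shh to the receptor Ptch1 and the Gli factors, and Ptch1 and Gli1 are themselves induced by it. Of 14 tested pathway genes 13 fell, where 53.7% of all genes were called lower, with a median of -1.58. Shh had 0.157 and 0.0232 RPKM at P60, against 14.9, 12.1 and 17.9 RPKM at P1 (log2 difference -4.70, SE 0.20, adjusted p = 3.1e-05 in limma), Ptch1 had 2.27 and 2.1 RPKM at P60, against 34, 26.3 and 28.6 RPKM at P1, and the factor Gli1 had 3.09 and 1.99 RPKM at P60, against 48.7, 29.7 and 56.4 RPKM at P1. Ligand, receptor and targets were thus below every newborn value in both adult libraries. Dhh, a ligand made by Schwann cells, was the member not called, at 0.30, and was called higher with median-of-ratios factors (0.65) and quantile normalization (1.04).

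Of 23 Wnt pathway genes 14 fell, 3 rose and 6 were not called, a share near the 53.7% of all genes called lower, and with median-of-ratios factors 11 were called lower and 6 higher. Wnt10b, a ligand of the hair placode and matrix, had 1.0 and 1.69 RPKM at P60, against 16.8, 15.5 and 19.9 RPKM at P1 (log2 difference -3.30, SE 0.20, adjusted p = 7e-05 in limma). Lef1, the nuclear factor that reads Wnt signals in the hair matrix, had 0.818 and 0.257 RPKM at P60, against 14.3, 14.6 and 13.6 RPKM at P1. Wnt10a, a ligand also used by adult epidermis, rose, with 18.5 and 12.9 RPKM at P60, against 8.88, 8.77 and 10.2 RPKM at P1. Of 16 Fgf genes 10 fell, 2 rose and 4 were not called, again near the share of all genes, and with median-of-ratios factors 6 were called lower and 3 higher. Among them were Fgf10, a ligand of mesenchyme, at -2.22 (SE 0.16) and its receptor Fgfr2 at -1.36 (SE 0.10). Fgf18, given above, and Fgf1, at 1.63 (SE 0.16), rose.

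Pigment cell genes were lower in the adult too. Melanocytes of growing follicles make the pigment of the hair, and the part of the follicles in this difference was not tested. All 13 melanocyte genes fell, with a median of -3.01, where 53.7% of all genes were called lower. With median-of-ratios factors 11 were called lower and 0 higher. Pmel, which builds the fibrils of melanosomes, had 1.52 and 1.43 RPKM at P60, against 68.8, 80.8 and 56.4 RPKM at P1 (log2 difference -5.11, SE 0.16, adjusted p = 1.4e-05 in limma). Dct, an enzyme of melanin synthesis, had 2.17 and 0.765 RPKM at P60, against 98.8, 113 and 85.2 RPKM at P1. Adult skin still held a low level of both. The list members Kit and Slc24a5 were under 1 RPKM in both adult libraries and passed the filter only through the newborn ones. Mitf, the master factor of the lineage, stood at -0.79, and at -0.32 with median-of-ratios factors and -0.22 with quantile normalization, where it was not called. Kit, which mast cells also use, and Sox10, which Schwann cells also use, stood at -3.01 and -0.56, and Sox10 was not called with either scaling (-0.08 and -0.03).

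**Figure D3:**
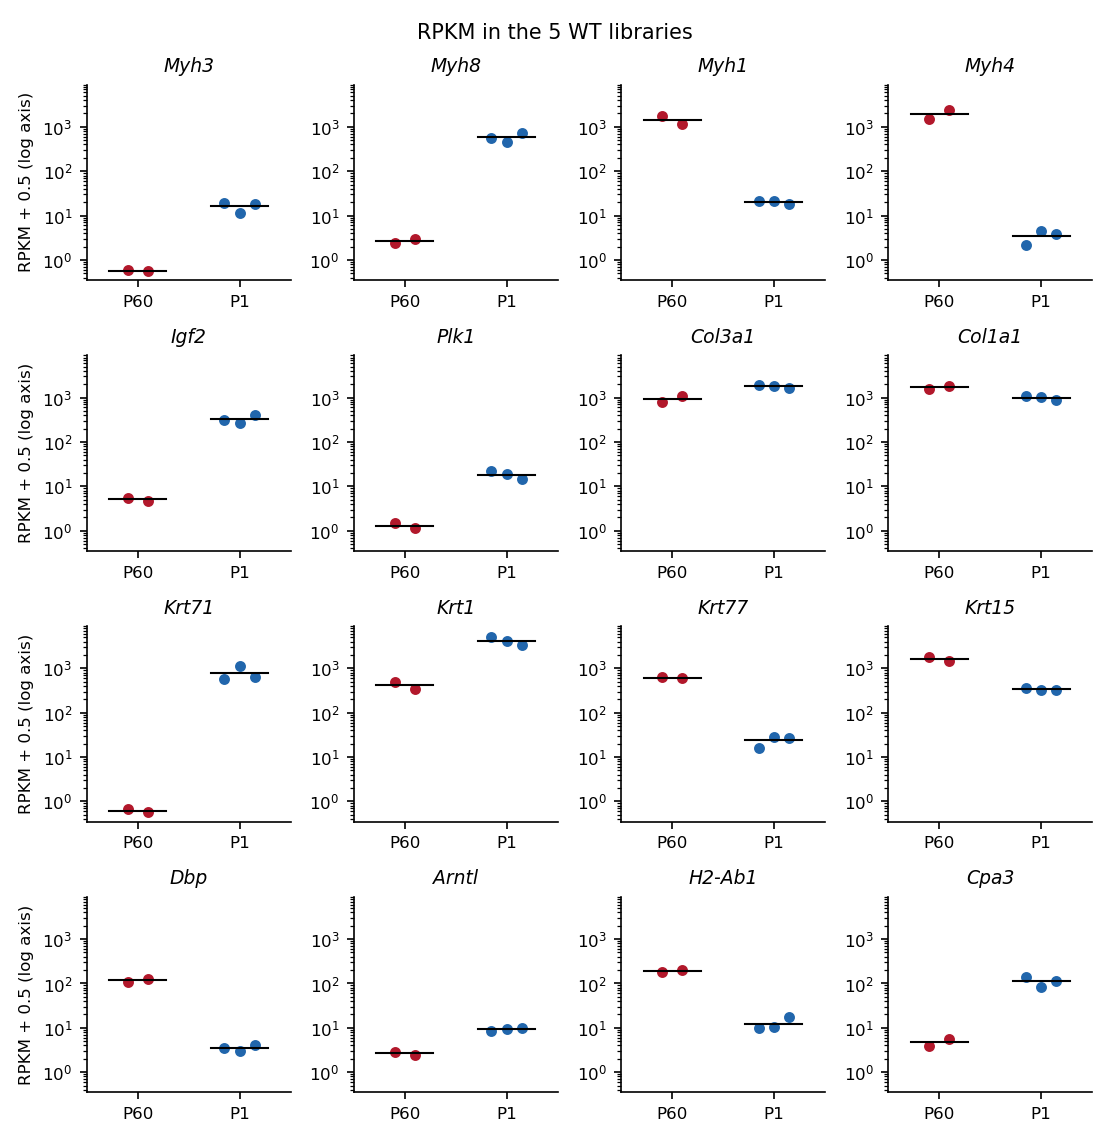
RPKM plus 0.5, on a log axis, of 16 genes in the 2 P60 libraries (red) and the 3 P1 libraries (blue) of WT skin; each point is 1 library and the line the mean of its age. The ages do not overlap in any panel: Myh4 lay at 1489.7 and 2389 RPKM at P60, against at most 3.99 RPKM at P1, and Krt71 at no more than 0.171 RPKM at P60, against 569 RPKM and above at P1.

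The keratinocyte compartments differed in how much they changed. Basal cell genes split, with 4 higher, 5 lower and 3 not called, and their median of -0.10 turned to 0.41 with median-of-ratios factors and to 0.11 without WT P60 replicate 2. Krt14, a keratin of basal cells, had 954 and 717 RPKM at P60, against 903, 817 and 692 RPKM at P1, and neither it nor its partner Krt5 was called. With median-of-ratios factors both were called higher, Krt5 at 0.63 and Krt14 at 0.57, and with quantile normalization they stood at -0.62 and -0.35. Dst, which links keratin filaments to hemidesmosomes, and Itgb4, the integrin subunit of the same junction, rose by 1.09 and 0.99. Lama3, a laminin chain of the basement membrane beneath them, fell, with a difference of -1.28, and Trp63, the factor of epidermal identity, fell, with 23.7 and 12.9 RPKM at P60, against 41.1, 40.1 and 31.4 RPKM at P1, and was not called with median-of-ratios factors (-0.56).

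The spinous layer exchanged its keratins. Of 14 members 8 fell, 1 rose and 5 were not called, near the 53.7% of all genes called lower, and with median-of-ratios factors 5 were called lower and 4 higher. Krt1, the main type II keratin of newborn spinous cells, had 484 and 345 RPKM at P60, against 5044, 4073 and 3398 RPKM at P1 (log2 difference -3.33, SE 0.24, adjusted p = 0.00011 in limma). Krt77, a related type II keratin, was the member that rose, with 624 and 614 RPKM at P60, against 15.2, 28.4 and 26.3 RPKM at P1 (log2 difference 4.75, SE 0.26, adjusted p = 5.7e-05 in limma). Adult libraries held more Krt77 than Krt1 per kilobase, and newborn libraries held far more Krt1. Krt10, the type I partner of both, had 1613 and 1630.1 RPKM at P60, against 6196, 4572 and 4184 RPKM at P1. Dsc1, a desmosomal cadherin of upper layers, differed by -2.64 (SE 0.20).

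Most barrier genes were lower in the adult. Of 20 tested cornified envelope genes 14 fell and 6 were not called, with a median of -1.52, where 53.7% of all genes were called lower. With median-of-ratios factors 13 of them were called lower and 1 higher. Casp14, the caspase of cornifying cells, had 12.9 and 10.6 RPKM at P60, against 112, 108 and 113 RPKM at P1 (log2 difference -3.19, SE 0.12, adjusted p = 2.1e-05 in limma). Hrnr, a filaggrin-related protein, had 4.99 and 3.65 RPKM at P60, against 117, 91.1 and 76 RPKM at P1. Lce1g, a late envelope protein, had 1.1 and 2.75 RPKM at P60, against 67.7, 52.4 and 74.8 RPKM at P1. Lce1 copies are alike enough that reads may be shared among them, and the single value is uncertain. Loricrin (Lor), the main envelope protein, varied between newborn libraries, had 564 and 768 RPKM at P60, against 1219.9, 821 and 2625 RPKM at P1, and was not called. It was called lower with quantile normalization (-1.56) and without WT P1 replicate 2 (-1.44).

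The enzymes that make barrier lipids were lower by little. Of 20 members 17 fell and 3 were not called, with a median of -0.74 against -0.48 for all genes, and with median-of-ratios factors 6 were called lower and 2 higher. Sdr9c7, a dehydrogenase of ceramide processing, differed by -1.17 (SE 0.11), Abca12, the lipid carrier of lamellar bodies, by -1.28 (SE 0.12), and Pnpla1, which completes acylceramides, by -1.75 (SE 0.17). Of the 15 sebaceous gland genes 9 fell, 1 rose and 5 were not called, near the 53.7% of all genes called lower, and with median-of-ratios factors 6 were called lower and 2 higher. Mc5r, a melanocortin receptor of sebocytes, had 0.359 and 0.55 RPKM at P60, against 2.43, 3.45 and 2.6 RPKM at P1. Among stress and companion layer genes 6 fell and 2 rose. Krt79, which marks the follicle opening, had 102 and 58.6 RPKM at P60, against 360.0, 344 and 324 RPKM at P1, and Defb6, an antimicrobial defensin, rose, with 84.6 and 31.3 RPKM at P60, against 1.34, 5.21 and 1.27 RPKM at P1. The call of the other riser, Krt6a, ended without WT P60 replicate 1 (0.40).

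Muscle RNA showed the largest rise of any list and a change of isoforms. All 20 genes of adult fast muscle rose, where 18.5% of all genes were called higher, with a median of 3.60. Their summed share of all RPKM was 11.3% to 12.5% at P60, against 1.06% to 1.95% at P1. Myh4, the myosin heavy chain of the fastest fibres, had 1489.7 and 2389 RPKM at P60, against 1.67, 3.99 and 3.43 RPKM at P1 (log2 difference 9.13, SE 0.35, adjusted p = 2.4e-05 in limma). Myh1 and Myh2, the heavy chains of the other fast fibre types, had 1719 and 1155 RPKM at P60, against 21.3, 20.6 and 17.8 RPKM at P1, and 95.5 and 170.5 RPKM at P60, against 0.677, 1.12 and 1.51 RPKM at P1. Pvalb, the calcium buffer of fast fibres, differed by 8.86 (SE 0.45). Mb, which encodes myoglobin, had 486 and 704 RPKM at P60, against 3.64, 4.42 and 4.39 RPKM at P1.

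The newborn myosins ran the other way. Myh8, the neonatal heavy chain, had 1.92 and 2.48 RPKM at P60, against 566, 457 and 740.1 RPKM at P1 (log2 difference -7.75, SE 0.22, adjusted p = 1.2e-05 in limma). Myh3, the embryonic heavy chain, had 0.0811 and 0.0636 RPKM at P60, against 19.1, 10.7 and 18.2 RPKM at P1. Myl4, an embryonic light chain, had 6.07 and 6.51 RPKM at P60, against 67.9, 45.9 and 68 RPKM at P1. Per kilobase, Myh4 was far above Myh8 in both adult libraries and Myh8 far above Myh4 in every newborn library. Of 15 embryonic and neonatal muscle genes 8 fell, 4 rose and 3 were not called, near the 53.7% of all genes called lower. With median-of-ratios factors 7 were called lower and 6 higher. The risers included Des, the intermediate filament of all muscle, at 2.82 (SE 0.28) and Csrp3, a Z-disc protein, at 2.72 (SE 0.18), while the acetylcholine receptor subunits exchanged, with the fetal Chrng at -2.08 and the adult Chrne at 2.42. Of 9 slow muscle genes 6 fell, 1 rose and 2 were not called, where 53.7% of all genes were called lower. Tnni1, the slow troponin I, had 0.479 and 0.481 RPKM at P60, against 8.04, 4.25 and 9.71 RPKM at P1. Acta1, a measure of the muscle RNA in each library, had 15884 and 17498 RPKM at P60, against 1938, 1555 and 3706 RPKM at P1, and its part in other differences was not tested.

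Genes of energy metabolism were mostly higher in the adult. Of 18 glycolysis genes 12 rose, 3 fell and 3 were not called (median 1.73). Pfkm, the muscle phosphofructokinase, had 567 and 607 RPKM at P60, against 46.2, 41.3 and 68.3 RPKM at P1 (log2 difference 3.52, SE 0.22, adjusted p = 7.6e-05 in limma). Pgam2, the muscle phosphoglycerate mutase, had 996 and 978 RPKM at P60, against 80.4, 71.7 and 119 RPKM at P1. The isoforms of other tissues fell: Pgam1 had 42.2 and 34.8 RPKM at P60, against 108, 114 and 76.6 RPKM at P1, and Pfkl stood at -0.98, or at -0.48 and not called with median-of-ratios factors. Eno1 was listed at 3.53 and 4.01 RPKM at P60, against 142, 189.8 and 132 RPKM at P1, but its near-identical copy Eno1b had 59.8 and 62.6 RPKM at P60, against 30.3, 19.6 and 13.8 RPKM at P1, and how reads were divided between these copies is uncertain. The pair together held 63.4 and 66.6 RPKM at P60, against 172, 209 and 146 RPKM at P1.

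The muscle actin Acta1, given above, was higher in the same libraries, and its part in the rise of metabolic genes was not tested. In the mitochondria 19 of 20 respiratory chain genes rose (median 0.95) and none fell. Uqcrc1, a core subunit of complex III, had 303 and 345 RPKM at P60, against 109.7, 111 and 112 RPKM at P1 (log2 difference 1.54, SE 0.11, adjusted p = 0.00011 in limma). Cox4i1, a subunit of cytochrome oxidase, had 763 and 848 RPKM at P60, against 247, 245 and 286 RPKM at P1. The heart and muscle form of another oxidase subunit, Cox7a1, rose by 4.48 (SE 0.22). Fatty acid oxidation genes also moved up, with 12 of 18 higher, 1 lower and 5 not called (median 0.53). Cpt1b, the muscle form of the carnitine transferase that admits fatty acids to mitochondria, had 61.6 and 68.2 RPKM at P60, against 9.13, 9.53 and 19.1 RPKM at P1 (log2 difference 2.40, SE 0.31, adjusted p = 0.00067 in limma). Cpt1a, the form of most other tissues, had 8.07 and 10.1 RPKM at P60, against 21.4, 29 and 26.1 RPKM at P1.

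Fat cell genes split the adult libraries from each other. Of 16 white adipocyte genes 3 fell, 1 rose and 12 were not called. Their median of -0.04 turned to 0.45 with median-of-ratios factors, to 0.10 without WT P1 replicate 2 and to 0.23 without WT P60 replicate 1. Adipoq, the hormone adiponectin of mature adipocytes, had 19 and 59.4 RPKM at P60, against 118, 172 and 110.1 RPKM at P1 (log2 difference -1.94, SE 0.46, adjusted p = 0.00879 in limma). Cd36, a fatty acid transporter, had 35 and 51.4 RPKM at P60, against 101, 136 and 88.4 RPKM at P1. Slc2a4, the insulin-regulated glucose carrier of muscle and fat, was the riser, with 58 and 72.1 RPKM at P60, against 10.04, 9.44 and 16.2 RPKM at P1. The adult libraries lay apart in Adipoq, with replicate 2 well above replicate 1 and below every newborn library.

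Lipid synthesis was mixed. Cholesterol synthesis genes fell in 12 of 20 and rose in none (median -0.80), a share near the 53.7% of all genes called lower. Under median-of-ratios factors 6 of them were called lower and 4 higher. Of 15 fatty acid synthesis genes 5 rose, 3 fell and 7 were not called. Their median of -0.04 turned to 0.44 with median-of-ratios factors, 0.23 with quantile normalization, 0.04 without WT P1 replicate 2 and 0.12 without WT P60 replicate 1. Mlxipl, a glucose-sensing factor that induces lipogenic genes, rose, with 14.1 and 14.1 RPKM at P60, against 2.9, 3.52 and 3.82 RPKM at P1, while Scd2, a desaturase of newborn tissues, fell, with 14.4 and 15 RPKM at P60, against 77.8, 70.7 and 45.3 RPKM at P1. Ribosomal protein genes, by contrast, stayed near 0: 6 of 20 rose, none fell, and 14 were not called, with a median of 0.15. That median was -0.25 with quantile normalization and 0.67 with median-of-ratios factors, where 17 were called higher.

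Clock genes differed between adult and newborn skin, most of them upward. The activators at the core of the clock drive the Per and Cry repressors, Nr1d1 and the D-box factors, whose products act back on them. Of 19 members 13 rose and 6 fell (median 1.41), and with median-of-ratios factors 13 were called higher and 2 lower. Of the 6 that fell, Rora, a nuclear receptor that activates Arntl, changed sign with median-of-ratios factors (0.03) and quantile normalization (0.05) and Npas2, a relative of the activator Clock, with quantile normalization (0.16). Dbp, a D-box activator with a strong daily rhythm, had 107 and 127 RPKM at P60, against 2.98, 2.5 and 3.51 RPKM at P1 (log2 difference 5.08, SE 0.16, adjusted p = 1.4e-05 in limma). Tef, its relative, had 72.1 and 69.3 RPKM at P60, against 13.5, 14.3 and 16.5 RPKM at P1. Ciart, a repressor of the activators, had 11.9 and 10.7 RPKM at P60, against 1.91, 1.81 and 1.49 RPKM at P1. Nr1d1, the repressor of Arntl, had 67.9 and 91.9 RPKM at P60, against 4.9, 6.07 and 8.6 RPKM at P1. Arntl itself fell, with 2.37 and 1.91 RPKM at P60, against 7.85, 8.77 and 9.45 RPKM at P1 (log2 difference -1.80, SE 0.14, adjusted p = 0.00013 in limma), and so did Cry1, with 4.29 and 3.25 RPKM at P60, against 10.6, 10.7 and 9.4 RPKM at P1. The labels do not give the hour of sampling.

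Promoters of Ciart and Tef are shown because the E-box CACGTG, the letters bound by the activators, lies in them. Of the 3 clock genes of smallest p, these are the ones whose windows held one; the window of Dbp held none, which says only that these letters are not in it. The windows are chr3:95882179-95882478 on the minus strand for Ciart and chr15:81811164-81811463 on the plus strand for the second of 2 Tef windows (RefSeq, GRCm38.p6, 5′ to 3′ on the gene's strand), and capitals mark CACGTG, which reads the same on both strands.
Ciart: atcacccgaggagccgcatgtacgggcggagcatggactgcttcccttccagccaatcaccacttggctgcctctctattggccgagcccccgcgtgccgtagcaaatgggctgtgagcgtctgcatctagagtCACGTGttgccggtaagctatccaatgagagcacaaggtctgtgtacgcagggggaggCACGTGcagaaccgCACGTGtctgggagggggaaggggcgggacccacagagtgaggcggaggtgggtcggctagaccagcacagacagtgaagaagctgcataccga
Tef: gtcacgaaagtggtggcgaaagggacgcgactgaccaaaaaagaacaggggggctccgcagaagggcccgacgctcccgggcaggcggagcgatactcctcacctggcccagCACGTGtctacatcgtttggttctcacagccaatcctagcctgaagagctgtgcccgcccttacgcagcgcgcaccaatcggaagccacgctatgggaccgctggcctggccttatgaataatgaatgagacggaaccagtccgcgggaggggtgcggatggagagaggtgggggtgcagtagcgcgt
In Ciart the motif began 116, 58 and 44 bases before the start. Of 21 windows of the 16 matched clock genes 6 (28.6%) held an E-box, against 7.15% of all 32851 windows. The D-box letters TTATGTAA or their complement were in 1 of the 21 windows, that of Per3, against 0.938% of all windows.

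Stress-responsive genes did not move as one. Of 16 immediate early genes 4 rose, 5 fell and 7 were not called, and their median of -0.29 turned to 0.22 with median-of-ratios factors. Nr4a1, a nuclear receptor induced by many stimuli, rose, with 68.8 and 79.8 RPKM at P60, against 9.91, 6.01 and 11.5 RPKM at P1 (log2 difference 3.00, SE 0.26, adjusted p = 0.00017 in limma), and Egr1, an early growth response factor, fell, with 11.3 and 7.82 RPKM at P60, against 49.99, 44.5 and 77.6 RPKM at P1. Fos, the best known member, overlapped between the ages, with 8.42 and 12 RPKM at P60, against 15.1, 10.6 and 50.1 RPKM at P1. Of 12 glucocorticoid-induced genes 7 rose, 2 fell and 3 were not called (median 0.93), and with median-of-ratios factors 9 were called higher and 0 lower. Tsc22d3, which mediates anti-inflammatory effects of glucocorticoids, had 131 and 126 RPKM at P60, against 10.51, 8.53 and 14.9 RPKM at P1 (log2 difference 3.48, SE 0.22, adjusted p = 8e-05 in limma). Sgk1, a kinase that the hormone induces, had 53.2 and 39.3 RPKM at P60, against 15.4, 18.6 and 18.3 RPKM at P1. Fkbp5, another target, was not called, at 10.3 and 9.2 RPKM at P60, against 10.2, 7.54 and 7.27 RPKM at P1, but was called higher with median-of-ratios factors (0.72) and quantile normalization (0.68).

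Antigen presentation was among the clearest gains of adult skin. Of 8 tested MHC class II genes 6 rose and 2 were not called (median 3.14). H2-Ab1, a chain of the class II molecule I-A, had 185 and 203 RPKM at P60, against 9.48, 9.83 and 16.7 RPKM at P1 (log2 difference 4.01, SE 0.25, adjusted p = 7.4e-05 in limma). H2-Aa, its partner chain, had 146 and 164 RPKM at P60, against 9.83, 8.69 and 14.8 RPKM at P1. Cd74, the chaperone of class II, had 321 and 383 RPKM at P60, against 18.7, 16.7 and 31.8 RPKM at P1. Every adult value was several times above the highest newborn value. All 12 MHC class I genes rose (median 1.90). H2-K1, a classical class I chain, had 508 and 533 RPKM at P60, against 34.1, 49.5 and 57.5 RPKM at P1 (log2 difference 3.49, SE 0.22, adjusted p = 7.9e-05 in limma). Nlrc5, the activator of class I transcription, had 6.43 and 5.51 RPKM at P60, against 0.745, 1.05 and 0.914 RPKM at P1. The interferon response genes did not follow: 1 rose, 6 fell and 9 were not called, with median-of-ratios factors 2 were called higher and 2 lower, and their median of -0.43 turned to 0.04 with median-of-ratios factors and to 0.10 with quantile normalization.

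Immune cell markers differed from type to type. Of 13 Langerhans and dendritic cell symbols 6 passed the filter, of which 2 rose, 1 fell and 3 were not called. Their median of 0.41 was -0.03 with no filter and -0.78 at 5 RPKM. Cd207, the langerin of Langerhans cells, had 5.75 and 3.32 RPKM at P60, against 0.081, 0.399 and 0.0411 RPKM at P1 (log2 difference 2.90, SE 0.31, adjusted p = 0.00032 in limma). Cd209a, a lectin of dermal dendritic cells, had 3.74 and 7.17 RPKM at P60, against 0.146, 0.235 and 0.318 RPKM at P1. Both were under 0.5 RPKM in all newborn libraries and so passed the filter only through the adult ones. Of 14 T cell symbols 6 passed the filter, of which 4 rose and 2 fell. The median of 0.86 turned to -0.74 at 5 RPKM, and the summed level was 44.4 to 55.6 RPKM at P60, against 60.5 to 71.4 RPKM at P1. Of the risers 3 were under 1 RPKM in every newborn library and passed only through the adult ones, among them Cd3e, a chain of the T cell receptor complex, at 5.2 and 3.47 RPKM at P60, against 0.41, 0.425 and 0.854 RPKM at P1 (log2 difference 2.19, SE 0.25, adjusted p = 0.00043 in limma). Thy1, which nerves and fibroblasts also make, and Lck, a kinase of the receptor, were those that fell, at -0.74 and -0.75. With median-of-ratios factors neither was called (-0.23 and -0.44), and Lck turned to 0.02 with quantile normalization.

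Macrophage genes were divided, with 4 higher, 4 lower and 6 not called, and their median of 0.10 was -0.39 without WT P60 replicate 2. Lyz2, the lysozyme of macrophages, rose, with 114 and 203 RPKM at P60, against 34.6, 44.8 and 66.1 RPKM at P1, while Mrc1, the mannose receptor of resident macrophages, and Mertk, a receptor for dying cells, fell, with differences of -1.21 and -1.24. Of 17 complement genes 7 rose, none fell and 10 were not called. With median-of-ratios factors 12 of them were called higher and 0 lower. Their median of 0.90 was 0.26 without WT P60 replicate 2 and 1.54 without replicate 1, and their summed level overlapped between the ages. C7, a part of the membrane attack complex, had 9.48 and 25.5 RPKM at P60, against 0, 0.0107 and 0.0232 RPKM at P1 (log2 difference 4.98, SE 0.38, adjusted p = 0.00012 in limma). Serping1, the inhibitor of the first component, had 121 and 201 RPKM at P60, against 25.6, 31.8 and 41.9 RPKM at P1. In C7 and Serping1, as in Lyz2 and in the fat gene Adipoq, replicate 2 was the higher adult library, and the part of fat in these differences was not tested. The C1q genes C1qa and C1qb lost their calls without that library, at 0.42 and 0.38.

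Mast cell genes were lower in the adult. All 8 tested members were lower, with a median of -3.02. Cpa3, their carboxypeptidase, had 3.32 and 5.21 RPKM at P60, against 139.8, 84.4 and 111 RPKM at P1 (log2 difference -4.56, SE 0.26, adjusted p = 5.9e-05 in limma). Cma1, a chymase, had 8.35 and 12.2 RPKM at P60, against 204, 128 and 158 RPKM at P1. Mcpt4, another chymase, had 17 and 20.5 RPKM at P60, against 149, 89.7 and 133 RPKM at P1. Kit, the receptor that mast cells and melanocytes depend on, had 0.873 and 0.712 RPKM at P60, against 10.2, 9.51 and 9.97 RPKM at P1. The groups lay apart in each gene, and the adult values were not at 0.

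Genes of vessels and nerves moved in different ways. Of 12 endothelial genes 6 fell and 6 were not called, near the 53.7% of all genes called lower. With median-of-ratios factors 1 was called lower and 3 higher. Their median of -0.27 turned to 0.21 with median-of-ratios factors and to 0.18 with quantile normalization. Kdr, the main receptor for vascular endothelial growth factor, had 2.5 and 2.59 RPKM at P60, against 7.5, 9.25 and 8.1 RPKM at P1 (log2 difference -1.52, SE 0.13, adjusted p = 0.00017 in limma). Pecam1, the pan-endothelial adhesion molecule, had 17.4 and 18.6 RPKM at P60, against 28.4, 28.2 and 31 RPKM at P1. Pecam1 and Cdh5 were not called with median-of-ratios factors, at -0.17 and -0.21. Of 14 Schwann cell and myelin genes 10 rose, 3 fell and 1 was not called (median 1.02), and with median-of-ratios factors 10 were called higher and 1 lower. Mbp, a protein of compact myelin, had 27.4 and 30.6 RPKM at P60, against 4.78, 6.42 and 8.21 RPKM at P1 (log2 difference 2.11, SE 0.21, adjusted p = 0.00027 in limma). Ncmap, a protein of peripheral myelin, had 4.56 and 4.5 RPKM at P60, against 0.331, 0.513 and 0.658 RPKM at P1. Erbb3, the neuregulin receptor of immature Schwann cells, fell, with 3.97 and 4.68 RPKM at P60, against 15.7, 17.4 and 14.4 RPKM at P1.

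Red cell RNA was present at both ages, while mammary and cartilage genes left small signals. Of 9 erythroid genes 7 fell and 2 were not called (median -2.03). Alas2, the first enzyme of haem synthesis in red cells, had 1.79 and 1.45 RPKM at P60, against 5.09, 8.16 and 14.1 RPKM at P1. The summed level of the erythroid list was 343 to 489 RPKM at P60, against 742 to 2192 RPKM at P1, so the newborn libraries also differed from each other. Hbb-b1, a beta globin, had 69 and 38.9 RPKM at P60, against 216, 320.5 and 653 RPKM at P1. Globin copies are alike, so their single values are uncertain. Of 7 brown fat genes 3 rose and 3 fell. The risers Cox7a1, Cox8b and Ppargc1a are also muscle genes, and Dio2, the deiodinase of brown fat, fell, with 0.228 and 0.145 RPKM at P60, against 1.4, 1.33 and 1.04 RPKM at P1, and was not called with quantile normalization (-0.47). Mammary and cartilage genes were near the filter: 5 and 2 members were tested, and Acan, the cartilage proteoglycan, was at 0 in both adult libraries and at no more than 1.73 RPKM at P1.

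**Figure D4:**
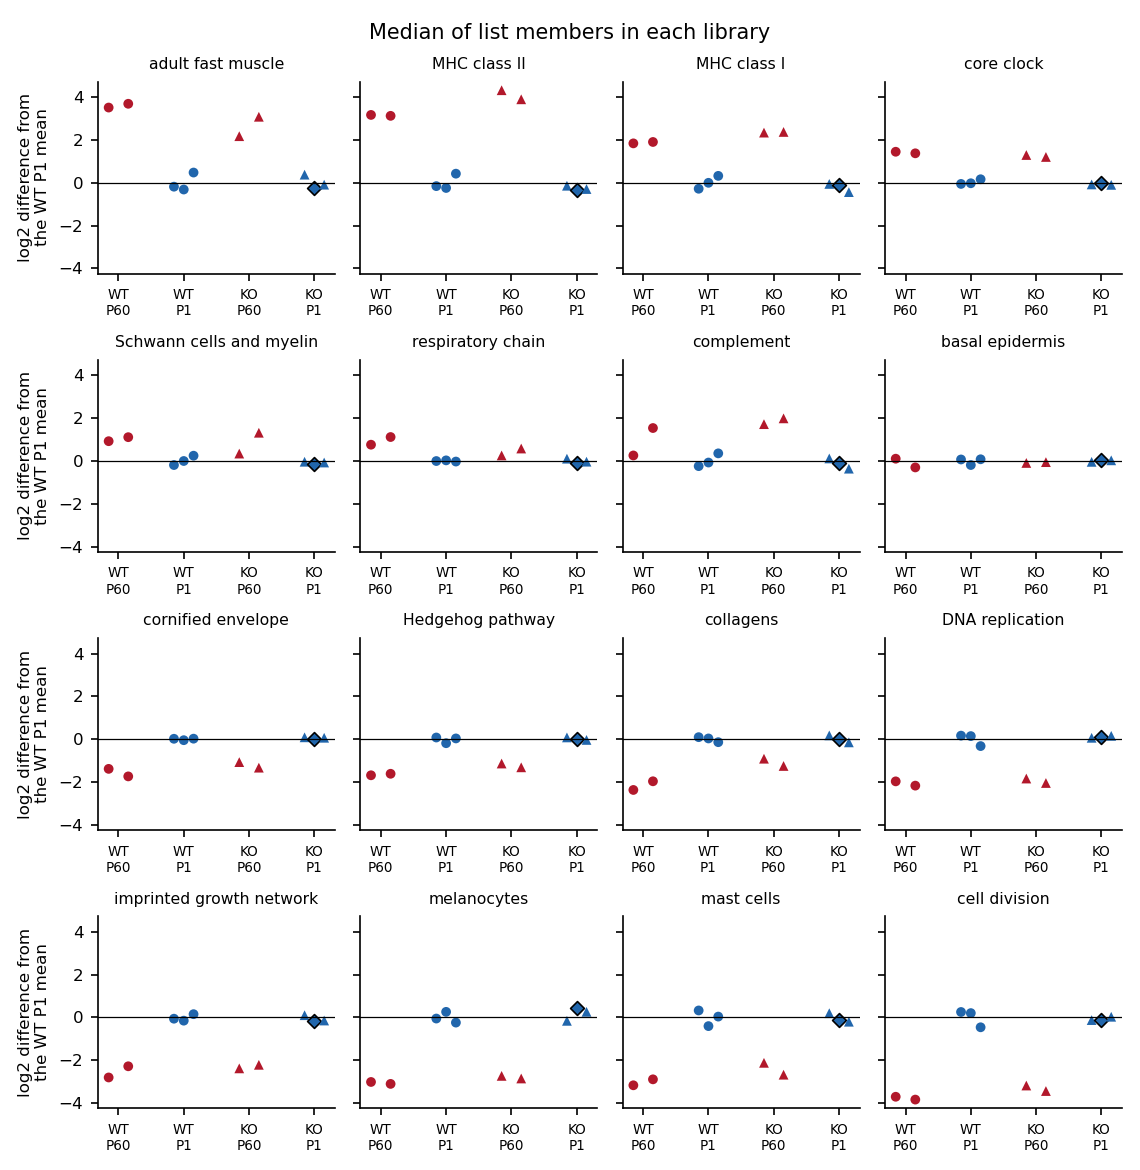
Median over the tested members of 16 gene lists in each of the 10 libraries, as the log2(RPKM + 0.5) difference from the mean of the WT P1 libraries; circles are WT, triangles KO, red P60 and blue P1. The diamond is KO P1 replicate 2, the P1 library with Y-linked RNA, which lies nearer the WT P1 mean than either WT P60 library in every panel, for example at -0.27 for adult fast muscle, where the WT P60 libraries stand at 3.51 and 3.68.

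The age difference of WT skin was set beside that of KO skin, whose libraries were other samples of the same 2 runs. In KO skin 9724 of 13690 genes (71%) were called. Of the 9884 genes called in WT skin, 9577 had the same sign in KO skin and 8393 were called there with that sign. The difference between the genotypes was itself tested, and 0 of 13690 genes (0%) passed in limma, while 3141 had an unadjusted p under 0.05. The count depended on single adult libraries: it was 258 without WT P60 replicate 2 and 768 without KO P60 replicate 2. A miss does not show that WT and KO skin aged alike.

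The genes of smallest p for that difference are named although none passed. Lmod2, a leiomodin that lengthens actin filaments of muscle, had 148 and 118 RPKM at P60, against 9.91, 8.52 and 9.43 RPKM at P1 in WT skin. It had 65.8 and 63.2 RPKM in KO skin at P60, against 12.5, 11 and 11.6 RPKM in KO skin at P1, so its age difference was 1.35 (SE 0.17) larger in WT skin (adjusted p = 0.0798 in limma). Fam8a1, a component of protein quality control in the endoplasmic reticulum, had 1.51 and 1.7 RPKM at P60, against 13.4, 13.1 and 12.8 RPKM at P1 in WT skin, and 4.51 and 3.71 RPKM in KO skin at P60, against 12.1, 12.5 and 12.1 RPKM in KO skin at P1, a contrast of -1.22 (SE 0.14) with the same adjusted p. Abra, an actin-binding activator of muscle transcription, stood at 1.75 (SE 0.28) and Ppp1r3c, which targets a phosphatase to glycogen, at 1.17 (SE 0.16). On the other side were Wasf2, a regulator of actin branching, at -1.08 (SE 0.16), Spred2, an inhibitor of the Ras pathway, at -0.85 (SE 0.12), and Sla, a signalling adaptor of lymphocytes, at -1.25 (SE 0.18). Sla is a weak case in WT skin alone, where its difference of -0.44 turned to 0.29 with quantile normalization.

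List medians in KO skin are given beside those of WT skin. The collagen list had a median of -2.07 in WT skin and -1.01 in KO skin. Fast muscle stood at 3.60 in WT skin and 2.66 in KO skin, MHC class II at 3.14 in WT and 4.31 in KO skin, and mast cells at -3.02 in WT and -2.32 in KO skin. Cell division, at -3.74 in WT and -3.24 in KO skin, and the core clock, at 1.41 in WT and 1.505 in KO skin, lay nearer each other. The macrophage list stood at 0.10 in WT and 1.45 in KO skin. Within KO skin the adult libraries also differed from each other, as Col1a1 shows with 8792 and 3657 RPKM in KO skin at P60, against 1188, 984 and 817 RPKM in KO skin at P1. The differences between these medians were not tested.

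**Figure D5:**
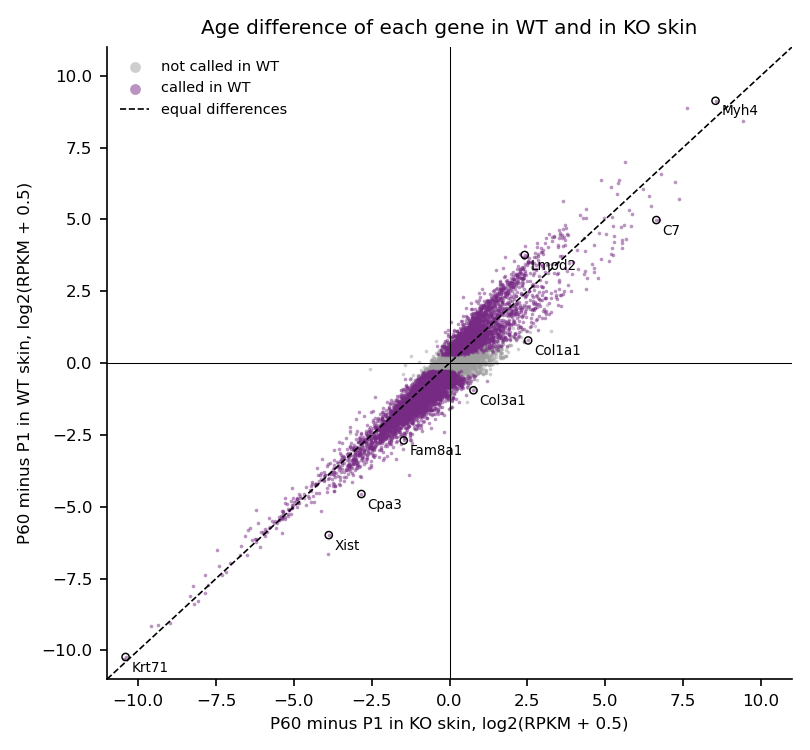
Each point is 1 of 13690 genes, with P60 minus P1 in KO skin on the horizontal axis and in WT skin on the vertical axis, both in log2(RPKM + 0.5); purple points were called in WT skin. Most lie along the dashed line of equal differences, and Col3a1, at -0.95 in WT and 0.77 in KO skin, is among those with opposite signs.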

How the data were processed

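Gene-level RPKM values of 10 libraries of mouse skin (RNA-seq of total RNA) were used as the authors deposited them, aligned to mm10 with TopHat2 2.1.0 and quantified in Partek per the submitters' processing notes; the sources used here name no annotation. Alignment counts and the sequencing run of each library came from a second sheet that the authors deposited. RPKM carries no integer counts, so depth enters only through these alignments (36131011 to 74916106), and the number of libraries limits precision. Since RPKM is a share of each library, a few abundant genes shift all others. Of 24543 entries, 26 are symbols turned into dates and 3470 are at 0 in all 10 libraries.

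Genes with at least 1 RPKM in 2 or more of the 5 WT libraries were tested as log2(RPKM + 0.5) with limma 3.58.1 (R 4.3.3; trended prior variance, two-sided, Benjamini-Hochberg over 13690 genes, threshold 0.05). WT was set against KO by an interaction term over all 10 libraries in 4 groups. On simulated data 200 of 13690 genes were shifted. Of those shifted by a log2 of 1, 55% were recovered, and of those shifted by a log2 of 2, 90%. Among the unchanged genes 12 were called. Far fewer genes were shifted there than the 9884 called in WT skin, so these shares do not give the recovery in the real comparison. The 53 gene lists with a tested member hold 720 tested genes. The members and lists were chosen with earlier results of these data known. The genes named are those of smallest p in each list, the 12 largest differences each way (of called, non-overlapping genes with a mean of at least 5 RPKM at 1 age, passing over predicted genes, small RNAs, pseudogenes and date symbols) and the 5 smallest p each way between WT and KO; further list members were named after their values were seen. Alternatives changed the pseudocount, the filter, the scaling, the variance model and the replicate block, or left out each library. Promoter windows are RefSeq's, on GRCm38.p6.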

Additional observations from a re-analysis of the deposited data

How the results depend on the processing

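The count of 9884 genes differing between P60 and P1 in WT skin stayed within 1.5 times under every alternative run: 9872 with a pseudocount of 0.1 or 1, 11003 with no filter, 7267 at 5 RPKM, 10519 in a fit of all 10 libraries, 9804 with no variance trend, 9020 with median-of-ratios factors, 8560 with quantile normalization, and 8358 to 10293 with 1 library left out. The split moved with the scaling, to 4493 higher and 4527 lower with median-of-ratios factors and 4119 higher and 4441 lower with quantile normalization. Of the 9884 genes, 7057 remained called with the first and 6850 with the second. Leaving out 1 library gave 1967 to 2926 higher and 6391 to 7367 lower.

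The contrast between WT and KO called 0 genes, against 2 with a pseudocount of 0.1, 19 with no filter, 3 with median-of-ratios factors and 0 to 768 with 1 library left out; without WT P1 replicate 2 it was 1, without WT P60 replicate 2 it was 258 and without KO P60 replicate 2 it was 768. The cause was not tested. A fit with the replicate number as a block called 10073 genes by age, of which 9491 were among the 9884, and 0 between WT and KO. The correlation of deviations was 0.189 for the samples numbered 1 and -0.101 for those numbered 2. With 2 libraries at P60 the deviations of 1 mirror those of the other, so these values cannot show whether the numbers pair samples. The numbers were not taken as pairs.

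Of 53 list medians 15 were above 0, and 14 to 22 under the alternatives. Of the genes named, Lck (0.022), Npas2 (0.16), Rora (0.045) and Sla (0.29) turned sign with quantile normalization and Rpl3 (0.28) and Rora (0.030) with median-of-ratios factors. The uncalled keratin genes changed sign with quantile normalization (Krt5 -0.62, Krt14 -0.35), with the replicate block (Krt5 -0.0024, Krt14 -0.055) and between libraries left out (Krt5 -0.13 to 0.34, Krt14 -0.16 to 0.26). Replicate 3 exists only at P1, so the block gave the same differences as leaving out WT P1 replicate 3 and is no separate check. With 2 libraries at P60, the 95% interval of a difference had a median reach of 0.361 to either side.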

Other observations

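Gene groups outside the lists also set adult skin apart from newborn skin. Neu2, a cytosolic sialidase, had 80.8 and 65.2 RPKM at P60, against 0.954, 1.33 and 1.58 RPKM at P1, and Aldh1a1, which makes retinoic acid, had 64.1 and 61.5 RPKM at P60, against 1.44, 1.56 and 1.3 RPKM at P1. Ccl8, a chemokine that draws monocytes, had 42.6 and 62.4 RPKM at P60, against 0.364, 1.53 and 2.15 RPKM at P1. Gpx3, an extracellular glutathione peroxidase, had 327 and 729 RPKM at P60, against 10.8, 15 and 56.5 RPKM at P1, with adult replicate 2 well above replicate 1. Muscle forms of 2 translation genes rose. Rpl3l, the ribosomal protein of striated muscle, had 178 and 195 RPKM at P60, against 4.0, 6.9 and 12.7 RPKM at P1, whereas Rpl3, its general form, had 612 and 528 RPKM at P60, against 650.0, 675 and 682 RPKM at P1 and was not called, with a difference that turned to 0.28 with median-of-ratios factors. Eef1a2, the elongation factor of muscle and neurons, had 533 and 588 RPKM at P60, against 16, 19.9 and 29.7 RPKM at P1, whereas its general form Eef1a1 stood at -0.84, or at -0.32 and not called with median-of-ratios factors.

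Lower in the adult were genes of the newborn epidermis and dermis. Gjb2, a gap junction protein of proliferating epidermis, had 1.4 and 1.07 RPKM at P60, against 83.3, 117 and 73.4 RPKM at P1. Crnn, a protein of the cornified envelope family, and Serpinb3a, a protease inhibitor, differed by -6.13 and -6.16. Agtr2, an angiotensin receptor of fetal mesenchyme, had 0.121 and 0.0718 RPKM at P60, against 36, 29 and 43.3 RPKM at P1, and Lrrc15, a membrane protein of activated fibroblasts, differed by -5.96. Mycn, a growth factor-responsive transcription factor of progenitor cells, differed by -4.21. Cyp2g1, a cytochrome P450, had 0 and 0.0334 RPKM at P60, against 37.3, 48.9 and 42.6 RPKM at P1. Adult levels of all of these except Gjb2 lay near 0. BC100530, a gene of the stefin cluster, had 0.909 and 1.28 RPKM at P60, against 1095, 1042 and 636 RPKM at P1, and near-identical neighbours make its single value uncertain.

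The age difference of 24 genes was called in both genotypes with opposite signs, 22 of them lower at P60 in WT skin and higher at P60 in KO skin. Col3a1 was among the 22, at -0.95 in WT and 0.77 in KO skin, and so was Efemp1, a fibulin, at -0.84 in WT and 0.56 in KO skin. With median-of-ratios factors neither was called in WT skin (-0.43 and -0.33). Myoz2, a Z-disc protein of slow muscle, went the other way, at 0.61 in WT and -0.40 in KO skin, and its WT call was lost without WT P60 replicate 2. For none of the 24 did the test of the difference pass, with adjusted p between 0.1 and 0.121 in limma.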
